A study of Homo sapiens with 32 samples.

Results

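The genotype by stress interaction is the extra response of one genotype to a stress, over and above the response of the other. Here it was the thapsigargin response of HEK293T cells with a phosphomimetic eIF3d minus the thapsigargin response of cells with wild-type eIF3d, for each gene, on the scale of log2(RPKM + 1). RPKM divides the reads of a gene by its length in kilobases and by the depth of the library. A value of 1 means that the ratio of stressed to unstressed level in the phosphomimetic cells was 2 times that ratio in the wild-type cells. A value of -1 means that it was 2 times lower. These fold values are somewhat understated for genes near 1 RPKM. The genes described are the 9637 of 58721 in the deposited tables whose mean over the 8 RNA-Seq libraries was at least 1 RPKM. ELOVL7 (mean 1.00 RPKM) and RCOR1 (1.00 RPKM) lay just inside this limit, and METTL25 (0.999 RPKM) and TFAP2A (0.999 RPKM) just outside it.

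The 8 libraries, of 32 samples in the series, formed 4 groups of 2, numbered 1 and 2 in the labels. All came from HEK293T, a transformed human embryonic kidney line. WT cells have the genotype label WT. DD cells carry eIF3d with the substitutions S528D and S529D, in which serines are replaced by aspartate to imitate phosphorylation. Each genotype received the vehicle DMSO or 600 nM thapsigargin (Tg) for 16 h. How the DD form was introduced, whether native eIF3d remained, and whether each genotype was 1 clone or several are not given in the sources used here. The labels do not say that the 2 libraries of a group came from separate cultures, so the p-values below measure the spread between these libraries, which may be technical.

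Thapsigargin inhibits SERCA, which pumps calcium into the endoplasmic reticulum (ER). Loss of ER calcium disturbs protein folding and starts the unfolded protein response, in which the sensors PERK, IRE1 and ATF6 raise the synthesis of ER chaperones. PERK also phosphorylates eIF2, which starts the integrated stress response (ISR): general translation drops while ATF4 and its partners are made and switch on target genes. eIF3d is a cap-binding subunit of eIF3, a factor of translation initiation, and the title of the series places it in the control of a lasting ISR. The interaction addresses whether the DD form alters the response of mRNA levels to the stress.

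The reads behind the RPKM values, recovered from their steps, numbered 4504557 to 10152128 per library. Mitochondrial ribosomal RNA took 25.5% (DD DMSO 2) to 57.4% (DD Tg 2) of them. The libraries differed more by number than by group. The first principal component, 55.6% of the variance, put the 4 libraries numbered 1 between -50.0 and -29.8 and the WT and DMSO libraries numbered 2 between 52.7 and 59.4, with DD Tg 2 at 0.65. DD Tg 2 stood alone on the second component at 75.5, against -25.7 to -0.14 for the other 7 libraries. Of 10 genes reported in HEK293 lines, 8 passed the limit of 1 RPKM. The summed level of the list was 140.2 to 192 RPKM in the libraries numbered 1 and 52.9 to 70.6 RPKM in those numbered 2. NEFM, a neurofilament gene of this list, was at 31.9 to 62.2 RPKM in the former and 0.0693 to 1.23 RPKM in the latter. NEFL and VIM were also lower in every library numbered 2, and CDH2 and LIN28B in all but DD Tg 2. IGF2BP1 overlapped. The keratin genes KRT18 and KRT8 went the other way outside DD Tg 2. KRT18 peaked at 17.15 RPKM in number 1, against 18.82 (WT DMSO 2), 36.08 (WT Tg 2) and 22.27 RPKM (DD DMSO 2). KRT8 peaked at 2.267 RPKM in number 1, against 6.479, 6.816 and 2.372 RPKM in the same libraries. Of 8 fibroblast markers 3 passed, the collagen genes COL1A1, COL1A2 and COL3A1, and the list summed to 26.9 to 39.8 RPKM in the libraries numbered 1 and 0.0904 to 0.645 RPKM in those numbered 2. In NEFM and the collagens both DD Tg libraries sat with their own number. No blood or hepatocyte marker passed. The part of these differences between numbers in the interaction was not tested. They cancel from it where they are equal in all 4 groups on the log scale. In bulk RNA, fewer cells of a kind and less RNA per cell cannot be told apart.

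The labels of treatment were compared with the genes that thapsigargin is known to induce. Of 26 ER chaperones and folding factors, 17 lay above the all-gene median of Tg minus DMSO in WT cells of replicate 1 and 25 in WT cells of replicate 2, with list medians 0.23 and 0.79 above it. In DD cells of replicate 2 it was 14 of 26, with a list median 0.13 above. In replicate 1 the library labelled DD Tg had only 8 of 26 above the median relative to the library labelled DD DMSO, and the list median was -0.39. Another experiment of the series with these treatments, Subunit-Seq, has libraries labelled HA-eIF3d-TEV rather than WT or DD. In its input RNA all 26 lay above the all-gene median in both replicate numbers, with medians 1.17 and 1.24 above. The targets of ATF4 and CHOP, 37 tested, showed little response in RNA-Seq: in WT cells 23 lay above the all-gene median in replicate 1 and 14 in replicate 2, with list medians of 0.08 and -0.11, and in DD cells 19 and 16, with 0.0089 and -0.20. In the input RNA 33 and 34 of the 37 lay above it, with medians 0.90 and 1.37. Of 9 transcription factors of the ISR, 4 and 7 lay above the median in WT cells, 1 and 4 in DD cells, and 8 and 9 in the input. The interactions below use all 8 libraries as labelled, and the lists of the ISR, the unfolded protein response and ER proteins are also given without the libraries labelled DD DMSO 1, DD Tg 1 or DD Tg 2.

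No gene was called for the interaction. limma's moderated test over the 9637 genes found 0 (percent called: 0%) at an adjusted p under 0.05, with 21 at an unadjusted p under 0.05 and a smallest adjusted p of 0.9999. With voom weights on the recovered reads, limma also called 0 of 9629 genes and had 6 at an unadjusted p under 0.05. The median standard error of an interaction was 0.87. The median error that read counting alone would give was 0.22, smaller than the spread between libraries. The interaction had a median of -0.10 over all genes, 0.13 in replicate 1 and -0.34 in replicate 2. Positions of genes and lists are therefore given relative to these medians where stated.

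The 2 replicate numbers share no library, so each gives its own interaction for every gene, and the values went opposite ways more often than the same way. Across the 9637 genes their Pearson correlation was -0.38 and Spearman's rho -0.43, a description over genes, which are not independent replicates. Relative to the medians, 3197 genes (33.2%) had the same sign in both. At least 1 below the median in both numbers were 47 genes (0.488%) and at least 1 above in both 41 genes (0.425%), while 498 were past 1 in opposite directions. The spread across genes was also wider in replicate 2, with an SD of 1.18 against 0.67 in replicate 1. The response of each genotype differed in the same respect: Tg minus DMSO correlated between the numbers at 0.11 in WT cells and at -0.44 in DD cells. The input pairs of Subunit-Seq, measured on the same genes, correlated at 0.09.

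**Figure D1:**
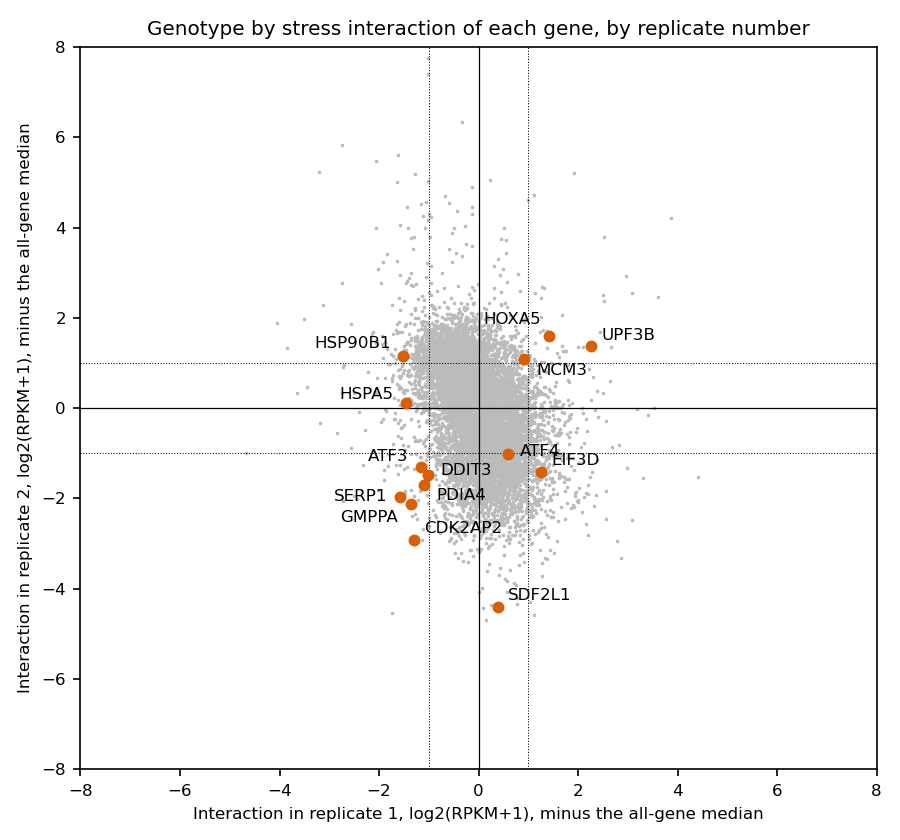
Each grey point is 1 of 9637 genes, with its interaction from the replicate 1 libraries on the x axis and from the replicate 2 libraries on the y axis, both in log2(RPKM + 1) minus the all-gene median, and dotted lines at 1 and -1. The cloud runs from upper left to lower right. Of the named genes in orange, ATF3, DDIT3, SERP1, GMPPA, PDIA4, CDK2AP2, HOXA5 and UPF3B lie past 1 the same way on both axes. EIF3D and HSP90B1 lie past 1 in opposite ways.

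The disagreement varied with gene length. From the shortest to the longest quintile of genes, by the effective length recovered from the RPKM steps, the median interaction relative to all genes was 0.15, 0.26, 0.05, -0.10 and -0.33 in replicate 1. In replicate 2 it was -0.41, -0.62, -0.06, 0.34 and 0.78, the opposite order. Expression level gave the same picture, with the most expressed quintile at 0.33 in replicate 1 and -0.99 in replicate 2. In single libraries, the median log2 level of the longest quintile minus that of the 2 shortest quintiles was -1.06 to -0.76 in 3 libraries numbered 1 and -1.65 to -1.58 in 3 numbered 2. DD Tg 1 was at -1.51, near the libraries numbered 2, and DD Tg 2 at -0.52, above all others. Within the quintiles of length the correlation between numbers was still -0.24, -0.15, -0.29, -0.46 and -0.54, and it was -0.31 over the 3802 genes with a mean of at least 5 RPKM. What made the DD Tg libraries differ in this way was not tested.

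**Figure D2:**
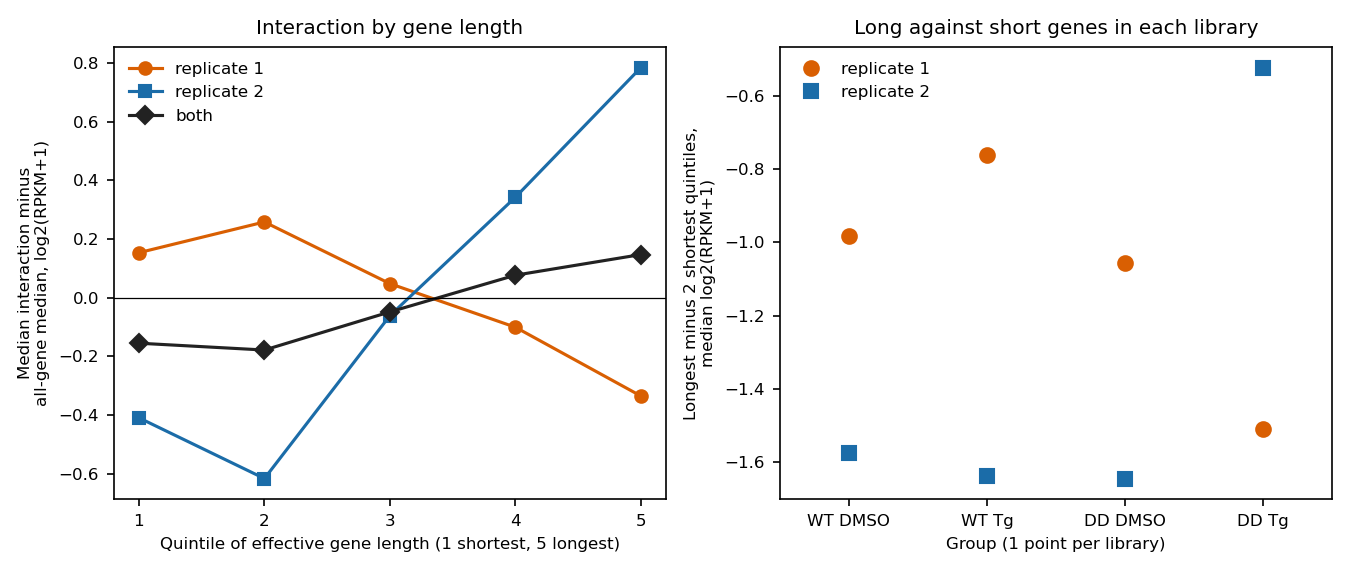
Left, median interaction in log2(RPKM + 1) minus the all-gene median for quintiles of effective gene length, for each replicate number and for both. Right, the median log2(RPKM + 1) of the longest quintile minus that of the 2 shortest quintiles, 1 point per library: DD Tg 1 (-1.51) lies near the libraries numbered 2, and DD Tg 2 (-0.52) lies above all others.

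Since most genes disagreed between numbers, the genes whose sign did not depend on the pairing of libraries were sought. Taking 1 library from each group gives 16 combinations, and 143 genes (1.48%) lay below the all-gene median in all 16 and 187 (1.94%) above it in all 16. These counts carry no test. Genes below the median in both replicate numbers made up 16.6% of all genes tested, and genes above it in both also 16.6%, and the gene lists are read against these shares.

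EIF3D itself (chr22:36510855-36529166, GRCh38), the gene of the altered factor, was measured at 68.3 and 69.6 (WT DMSO), 44.2 and 91.2 (WT Tg), 37.5 and 76.6 (DD DMSO) and 64.3 and 29.2 RPKM (DD Tg). It was therefore lower in Tg in WT replicate 1 and DD replicate 2 and higher in the other pairs, and the groups overlapped. Its interaction was -0.19 ± 1.14 (SE of the fit, 2 libraries per group), made of 1.38 in replicate 1 and -1.75 in replicate 2. A gene-level table cannot show the 2 substitutions, so EIF3D does not check the genotype labels here. Over all 13 eIF3 subunits the interaction had a median 0.68 above all genes in replicate 1 and -1.04 in replicate 2. No subunit lay below the median in both numbers and 2 lay above in both, against 16.6% of all genes in each direction.

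Among 9 transcription factors of the ISR, 3 lay below the all-gene median in all 16 combinations, against 1.48% of all genes, and these were ATF3, DDIT3 and TFE3. The first 2 of these were also at least 1 below it in both numbers, against 0.488% of all genes. None passed limma's test, with an adjusted p of 0.9999 for each. The list median lay at -0.27 relative to all genes, with -0.05 in replicate 1 and -0.54 in replicate 2, with 3 of 9 below in both numbers (16.6% of all genes). In fits with the replicate number as a block, as in every list median given below without a library, it was -0.27 without DD Tg 2, -0.46 without DD Tg 1 and -0.092 without DD DMSO 1. Each of the 8 libraries was left out in turn, with and without that block, which makes 16 leave-one-out fits, and over these the list median ran from -0.56 to 0.019.

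ATF3 (chr1:212565407-212620777), a stress-induced factor that follows ATF4, was at 23.4 and 17.95 (WT DMSO), 40.1 and 46.4 (WT Tg), 19.9 and 11.6 (DD DMSO) and 16.2 and 9.05 RPKM (DD Tg). The WT Tg libraries were the highest of all 8, while both DD Tg libraries were below the DD DMSO library of their number. Its interaction was -1.34 ± 0.95, made of -1.03 in replicate 1 and -1.65 in replicate 2, and relative to all genes it ran from -1.97 to -0.47 over the 16 combinations. Over the 16 leave-one-out fits it moved between -1.75 and -0.93. DDIT3 (chr12:57516588-57520517), which encodes the pro-apoptotic factor CHOP, was at 16.7 and 24.3 (WT DMSO), 20.4 and 31.2 (WT Tg), 33.5 and 41.8 (DD DMSO) and 21.4 and 14.3 RPKM (DD Tg). DDIT3 was thus highest in DD cells without stress, and its DD Tg libraries did not overlap those of DD DMSO. Its interaction was -1.37 ± 0.96, with -0.90 in replicate 1 and -1.83 in replicate 2 and -2.42 to -0.21 over the combinations, and it moved between -1.88 and -0.86 over the leave-one-out fits. TFE3, a lysosomal regulator chosen for naming after its values were seen, had a smaller interaction of -0.54 ± 0.61 at 1.59 to 3.83 RPKM.

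**Figure D3:**
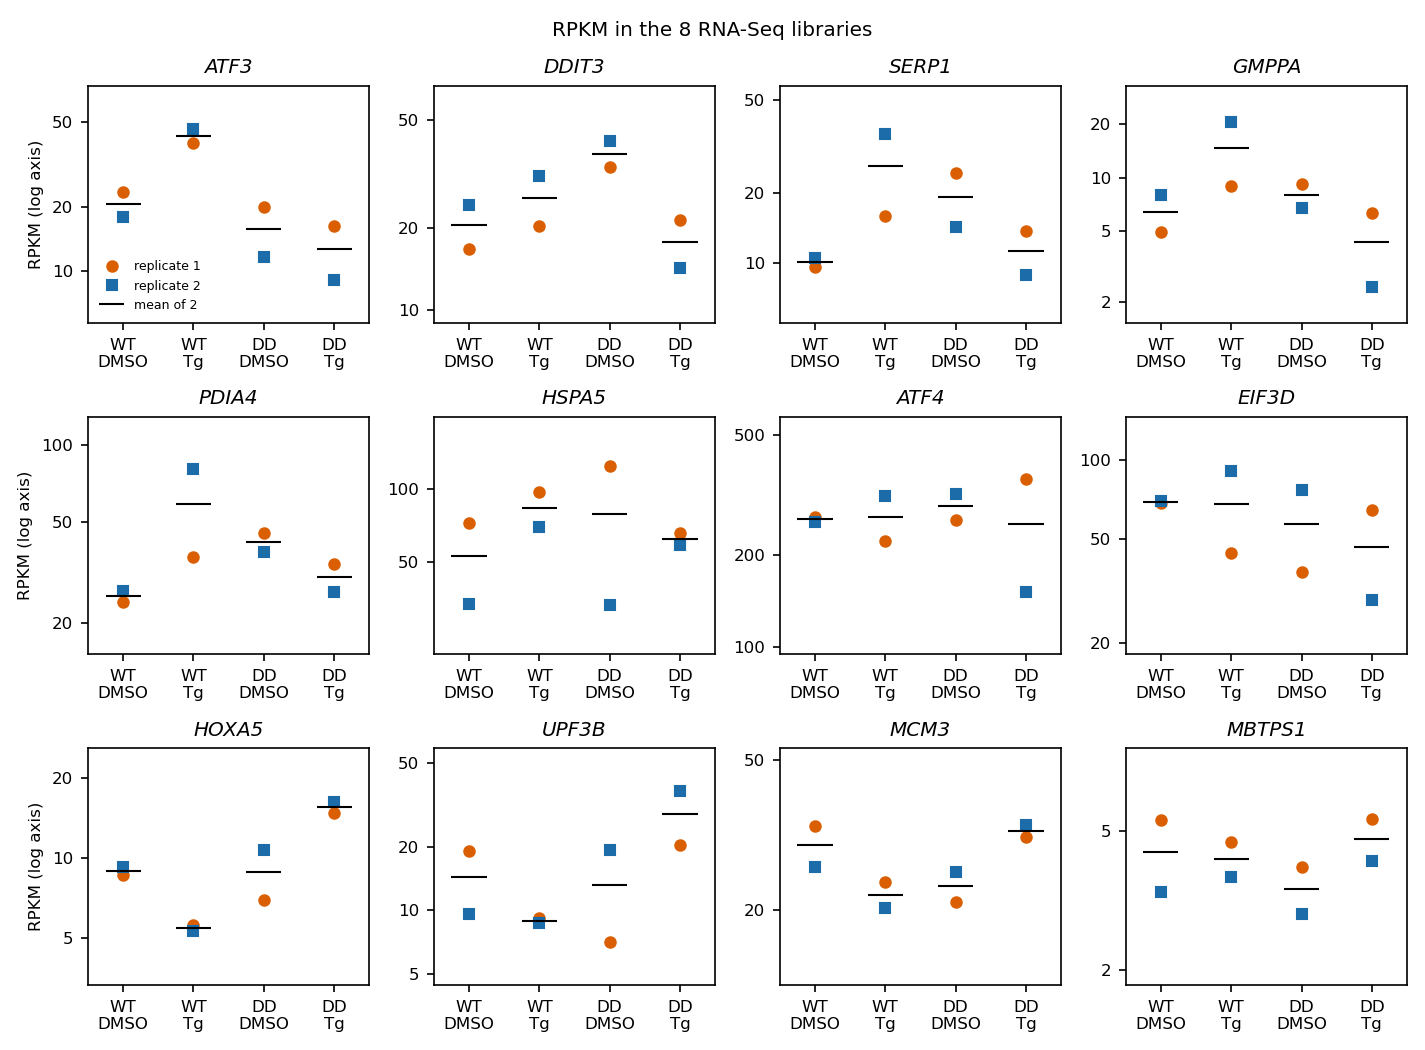
RPKM on a log axis for 12 genes in the 8 RNA-Seq libraries, with 1 point per library, circles for replicate 1, squares for replicate 2 and a bar at the mean of each group of 2. ATF3 is highest in WT Tg at 40.1 and 46.4 RPKM and HOXA5 in DD Tg at 14.8 and 16.2 RPKM, while EIF3D and ATF4 move opposite ways in the 2 replicate numbers of DD cells.

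ATF4, the central factor of the ISR, which is controlled largely at translation, was at 268 and 258 (WT DMSO), 224 and 314 (WT Tg), 262 and 320.5 (DD DMSO) and 359 and 151 RPKM (DD Tg). The highest and the lowest of these values were the 2 DD Tg libraries. Its interaction was -0.32 ± 1.13, with 0.71 in replicate 1 and -1.36 in replicate 2, and under quantile normalization it turned to 0.16. ATF5, a related factor under similar translational control, was higher in every WT library than in the DD library of the same treatment and number, but its interaction was 0.22 ± 0.66 with values of 0.52 and -0.081 in the 2 numbers.

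The interaction of the targets of ATF4 and CHOP concerns genes that, as given above, hardly responded to Tg in the WT libraries, with list medians of 0.08 and -0.11 for Tg minus DMSO. Over 37 of them tested, the median interaction was -0.02 relative to all genes, with 6 below in both numbers and 3 above in both, against 16.6% of all genes in each direction. It was 0.21 without DD Tg 2, -0.32 without DD Tg 1 and -0.052 without DD DMSO 1. TRIB3, a pseudokinase that dampens ATF4 signalling, had the lowest interaction by the ranking used for naming, -0.94 ± 1.29, from 43.02 and 69.2 (WT DMSO), 47.7 and 75.3 (WT Tg), 52.9 and 20.95 (DD DMSO) and 41.5 and 8.04 RPKM (DD Tg). Both DD Tg libraries of TRIB3 were below their DD DMSO library and both WT Tg libraries slightly above theirs, by 0.15 and 0.12 in log2(RPKM + 1), against 1.96 and 4.08 in the input pairs. Without DD Tg 2 the interaction of TRIB3 turned to 0.17, or to 0.18 with the block. PSAT1, an enzyme of serine synthesis, had the highest by the same ranking at 0.50 ± 1.31, with 0.71 and 0.29 in the 2 numbers. ASNS, a classical ATF4 target, had a mean of 0.371 RPKM and was below the limit for testing. PPP1R15A, which encodes the stress-induced phosphatase subunit GADD34, had an interaction of -0.43 ± 1.06, with 0.68 in replicate 1 and -1.53 in replicate 2, so the numbers disagreed in sign.

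Of 19 genes of the eIF2 kinases, eIF2, eIF2B and the eIF2 phosphatases, 15 lay below the all-gene median over both numbers. Taken singly, 3 of 19 lay below in both numbers and 1 above in both, against 16.6% of all genes in each direction. The list median was -0.12, with -0.34 in replicate 1 and 0.17 in replicate 2. It was -0.45 without DD Tg 2, 0.35 without DD Tg 1 and -0.19 without DD DMSO 1. EIF2B4, a subunit of the exchange factor that eIF2 phosphorylation inhibits, was lowest by the ranking at -1.11 ± 0.77, with -0.37 and -1.85. EIF2S2, the beta subunit of eIF2, was highest by the ranking at 0.0027 ± 1.09, where the values of the 2 numbers were 0.32 and -0.31. EIF2AK4, which encodes the amino acid sensor kinase GCN2, was at 0.519 to 2.30 RPKM with a higher interaction of 0.34 ± 0.68, whose values in the 2 numbers were -0.17 and 0.84.

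Among 12 sensors and transcription factors of the unfolded protein response the median was -0.04 relative to all genes, -0.03 in replicate 1 and 0.56 in replicate 2. It was 0.040 without DD Tg 2, 0.43 without DD Tg 1 and 0.072 without DD DMSO 1, with 5 of 12 below each time, against 7 with all libraries. XBP1, the factor activated when IRE1 splices its mRNA, was at 109.6 and 83.1 (WT DMSO), 111 and 118 (WT Tg), 101 and 43.2 (DD DMSO) and 96.9 and 22.9 RPKM (DD Tg). The values that stood out were the low ones of DD cells in replicate 2, in DMSO and more so in Tg. Its interaction was -0.73 ± 1.26, with -0.076 in replicate 1 and -1.39 in replicate 2; RPKM does not separate the spliced from the unspliced form. MBTPS1, the Golgi protease that cleaves ATF6, was at 5.37 and 3.34 (WT DMSO), 4.65 and 3.69 (WT Tg), 3.95 and 2.90 (DD DMSO) and 5.40 and 4.09 RPKM (DD Tg). It was above the all-gene median in all 16 combinations (1.94% of all genes were), at 0.12 to 0.78, with a small interaction of 0.41 ± 0.71.

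Chaperone genes are known to answer ER stress through the ER stress response element (ERSE), which is CCAAT and CCACG spaced by 9 bases of any kind, where NF-Y binds the first part and ATF6 the second. The 250 bases before the start of each gene in the RefSeq promoter table (GRCh38.p14) were searched on both strands for it. An exact ERSE was found before 22 of 27305 promoters (0.0806%), before 11 of 6837 genes tested here (0.161%) and before 6 of 24 matched ER chaperones and folding factors (25%). CCACG alone, which the element contains, was present before 46.9% of the genes tested. The sites of the 11 genes were found by sequence alone. The genes also had to reach a mean of 1 RPKM to be tested, and they were named after their values were seen. Besides the chaperones HSPA5, HSP90B1, CALR (calreticulin) and CANX (calnexin), they include CRELD2 and ERO1B of the folding machinery, the mannosyltransferase ALG12, SERP1, XBP1, the initiation factor EIF2A and the membrane protein TMEM120A. Each site is given 5′ to 3′ on the strand that reads CCAAT first, with up to 20 bases on either side and the element in capitals.

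HSPA5: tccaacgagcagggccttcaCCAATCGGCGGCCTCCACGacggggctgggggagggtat
HSP90B1: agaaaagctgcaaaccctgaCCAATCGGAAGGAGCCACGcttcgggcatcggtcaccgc
CALR: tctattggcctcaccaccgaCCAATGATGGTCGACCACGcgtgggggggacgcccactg
CANX: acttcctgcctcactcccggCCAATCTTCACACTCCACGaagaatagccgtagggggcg
CRELD2 and ALG12: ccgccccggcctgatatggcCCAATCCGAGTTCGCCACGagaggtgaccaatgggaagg
ERO1B: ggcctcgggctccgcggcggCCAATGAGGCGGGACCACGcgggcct
EIF2A and SERP1: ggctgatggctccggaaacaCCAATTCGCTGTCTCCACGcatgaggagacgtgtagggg
XBP1: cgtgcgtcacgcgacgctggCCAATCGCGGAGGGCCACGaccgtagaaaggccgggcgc
TMEM120A: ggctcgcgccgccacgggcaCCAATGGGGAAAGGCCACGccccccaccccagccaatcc

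In GRCh38.p14 these windows are chr9:125241371-125241429 (minus strand) for HSPA5, chr12:103930196-103930254 (plus) for HSP90B1, chr19:12938364-12938422 (minus) for CALR and chr5:179698758-179698816 (plus) for CANX. The others are chr22:49918534-49918592 (minus) for CRELD2 and ALG12, chr1:236282163-236282208 (plus) for ERO1B, chr3:150546690-150546748 (plus) for EIF2A and SERP1, chr22:28800583-28800641 (minus) for XBP1 and chr7:75994660-75994718 (plus) for TMEM120A. HSP90B1 has 2 exact elements, of which the one farther from the start is shown. The elements lay between 52 bases (XBP1) and 243 bases (ERO1B) before the start. CRELD2 and ALG12 share 1 element, as do EIF2A and SERP1, each pair being transcribed outwards from the same stretch, so the 11 genes have 9 distinct windows. A match of letters is a description and does not show that a factor bound there.

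Relative to all genes, 10 of the 11 genes with an ERSE had an interaction below the median, and their median was -0.69, with -0.49 in replicate 1 and -0.98 in replicate 2. Taken singly, ALG12, CANX, SERP1, TMEM120A and XBP1 lay below in both numbers, as did 16.6% of all genes. The rest of the 11 had opposite signs in the 2 numbers. The 6826 genes tested without one had a median of 0.01. SERP1 was the lowest of the 11 at -1.79, then CALR at -1.19 and CANX at -1.09, and EIF2A was the 1 gene above, at 0.09. SERP1 and EIF2A, which share an element, thus stood at the ends of the range, a difference that was not tested. Without DD Tg 2 the list median was -0.60 with 9 of 11 below, and without DD Tg 1 it was -1.33 with 8 of 11 below. Without DD DMSO 1 it was -0.60 with 9 of 11 below. HSPA5 and 5 other genes of the 11 also belong to the chaperone list described next, and none of the 11 was called by limma.

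**Figure D4:**
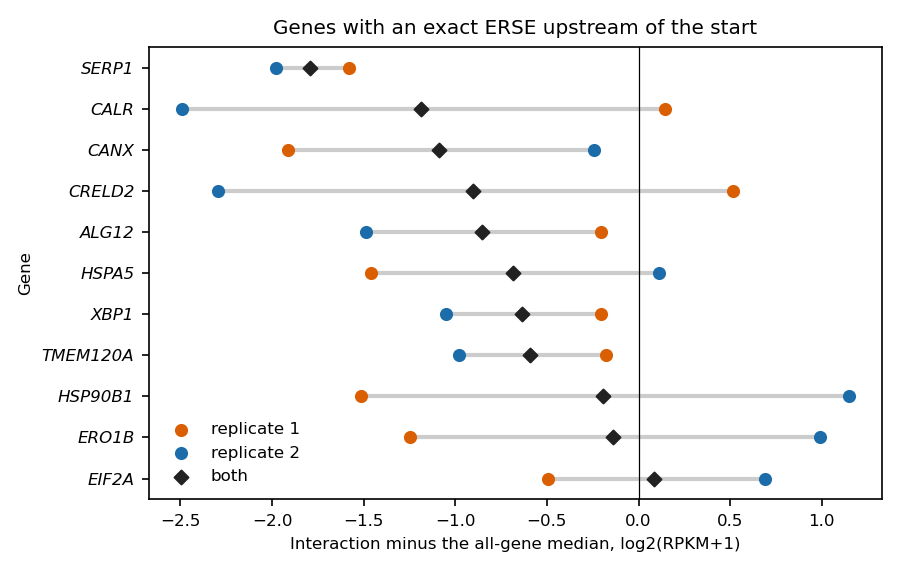
Interaction of the 11 genes with an exact ERSE within 250 bases before the start, in log2(RPKM + 1) minus the all-gene median, from replicate 1 (orange), replicate 2 (blue) and both (black diamonds). SERP1 lies low in both numbers, and CALR and CRELD2 only in replicate 2. CALR, CRELD2, HSPA5, HSP90B1, ERO1B and EIF2A have opposite signs in the 2 numbers.

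The ER chaperones and folding factors had the lowest median among the lists chosen by function. Of 26 tested, 24 had an interaction below the all-gene median, and the list median was -0.66, with -0.83 in replicate 1 and -0.57 in replicate 2. Taken singly, 9 of 26 lay below in both numbers, against 16.6% of all genes, and none above in both. PDIA4 and P4HB lay below in all 16 combinations, as did 1.48% of all genes, and P4HB reached up to -0.023 in 1 of them. PDIA4 and SELENOK were at least 1 below in both numbers, as were 0.488% of all genes. The list median was -0.66 without DD Tg 2, -0.77 without DD Tg 1 and -0.72 without DD DMSO 1, with 24, 17 and 19 of the 26 below. It stayed between -0.95 and -0.41 over the leave-one-out fits.

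HSPA5, which encodes BiP, the main ER chaperone of the HSP70 family, was at 72.6 and 33.4 (WT DMSO), 97.5 and 69.5 (WT Tg), 125 and 33.2 (DD DMSO) and 65.9 and 58.7 RPKM (DD Tg). The highest library was DD DMSO 1, above both WT Tg libraries, so the negative value of replicate 1 came with a high unstressed DD library. Its interaction was -0.78 ± 1.22, with -1.33 in replicate 1 and -0.23 in replicate 2, and without DD DMSO 1 it was 0.16, or -0.13 with the block. HSP90B1, the ER member of the HSP90 family, was at 72.99 and 27.2 (WT DMSO), 111 and 39.7 (WT Tg), 115 and 36.1 (DD DMSO) and 66.5 and 92.3 RPKM (DD Tg). It also peaked in DD DMSO 1, and its 2 interactions had opposite signs, -1.39 and 0.80, around a fitted -0.29 ± 1.30 that turned to 0.11 under quantile normalization.

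PDIA4, a protein disulfide isomerase, was at 24.3 and 26.9 (WT DMSO), 36.4 and 80.5 (WT Tg), 45.2 and 37.997 (DD DMSO) and 34.1 and 26.5 RPKM (DD Tg). Both WT Tg libraries were above both WT DMSO libraries, and both DD Tg libraries were below both DD DMSO libraries. Its interaction was -1.51 ± 1.02, from -2.32 to -0.49 over the combinations and from -2.14 to -0.87 over the leave-one-out fits. P4HB, another disulfide isomerase, had -1.95 ± 1.10, with -0.35 in replicate 1 and -3.55 in replicate 2. SELENOK, a selenoprotein of the ER membrane, had -1.34 ± 1.30, with -0.997 in replicate 1 and -1.68 in replicate 2.

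DNAJB9, an HSP40 partner of BiP induced through XBP1, was at 4.33 and 1.72 (WT DMSO), 8.02 and 4.97 (WT Tg), 7.67 and 1.88 (DD DMSO) and 4.44 and 2.14 RPKM (DD Tg). Its interaction was -1.22 ± 0.94, with -1.43 in replicate 1 and -1.01 in replicate 2, although its DD Tg 2 library was slightly above DD DMSO 2. SDF2L1, a BiP co-factor, had the largest single value of the list, -4.74 in replicate 2, since WT Tg 2 stood at 149.7 RPKM and the other 7 libraries between 8.28 and 56.8 RPKM. In replicate 1 its interaction was 0.51, and its fitted value of -2.11 ± 1.79 moved to -0.11 without WT Tg 2, or to -0.47 with the block. HERPUD1, a component of ER-associated degradation, had -1.06 ± 1.26, which moved to 0.048 without DD Tg 2, or to -0.42 with the block.

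Genes of ER translocation, glycosylation, ER-associated degradation and COPII transport sat low as well. Of 39 tested, 33 lay below the median over both numbers, and 15 did so in both numbers singly, against 16.6% of all genes, with 1 above in both. The list median was -0.49, with -0.33 in replicate 1 and -0.75 in replicate 2. It was -0.33 without DD Tg 2, -0.65 without DD Tg 1 and -0.35 without DD DMSO 1, with 28 of 39 below each time. SSR4, a subunit of the translocon-associated complex, had the lowest interaction by the ranking at -1.74 ± 1.41, with -0.73 and -2.75. SSR2 of the same complex (-1.45 ± 1.03) and SRPRB, the membrane subunit of the signal recognition particle receptor (-0.88 ± 0.95), lay below the median in all 16 combinations. So did 1.48% of all genes, and the highest values over the combinations were -0.040 for SSR2 and -0.077 for SRPRB. VCP, the ATPase that extracts proteins from the ER membrane, was the highest at 0.47 ± 0.80.

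The 93 genes tested that were at least 1 above the median of Tg minus DMSO in both Subunit-Seq input pairs gave a list of stress genes from other libraries, picked after the data were seen. In WT RNA-Seq 58 of the 93 lay above the all-gene median in replicate 1 and 55 in replicate 2. In DD RNA-Seq it was 22 in replicate 1 and 47 in replicate 2. Their median interaction was -0.29 relative to all genes, with -0.45 in replicate 1 and -0.22 in replicate 2.

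Ranking all genes with a mean of at least 5 RPKM by the smaller of their 2 interactions, with the same sign required, named the ends of the distribution. At the low end stood SERP1, GMPPA and CDK2AP2, besides pseudogenes, an unnamed gene, an antisense transcript and ENHO, whose reads were few, could be shared with near-identical copies or, for the antisense transcript, could come from the other strand. SERP1 (chr3:150541998-150546496), a small ER membrane protein that stabilizes new membrane proteins under stress, was at 9.59 and 10.5 (WT DMSO), 15.9 and 35.8 (WT Tg), 24.2 and 14.3 (DD DMSO) and 13.7 and 8.82 RPKM (DD Tg). The 2 WT Tg libraries exceeded both WT DMSO libraries, and each DD Tg library was below the DD DMSO library of its number. Its interaction was -1.89 ± 0.96, with -1.45 in replicate 1 and -2.32 in replicate 2, and it ran from -3.04 to -0.54 over the 16 combinations. Over the leave-one-out fits it moved between -2.64 and -1.13.

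GMPPA (chr2:219498891-219506989), which regulates the supply of GDP-mannose for glycosylation, was at 4.92 and 7.95 (WT DMSO), 8.96 and 20.6 (WT Tg), 9.21 and 6.78 (DD DMSO) and 6.29 and 2.42 RPKM (DD Tg). Its pattern was that of SERP1, with no overlap between DD DMSO and DD Tg. The interaction of GMPPA was -1.85 ± 0.93, with -1.24 in replicate 1 and -2.46 in replicate 2. CDK2AP2, a cell cycle regulator that binds CDK2, reached -2.21 ± 1.20, drawn from 20.995 and 36.9 (WT DMSO), 32.4 and 98.2 (WT Tg), 33.4 and 26.5 (DD DMSO) and 22.2 and 6.54 RPKM (DD Tg). Relative to all genes, the interaction of CDK2AP2 ran from -4.25 to 0.023 over the 16 combinations. Read counting alone would give this interaction an error of 0.12, against the SE of 1.20.

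At the high end stood HOXA5, HMGN5, UPF3B, HOXC9 and HTATSF1, besides a U6 small RNA copy and pseudogenes. HOXA5 (chr7:27141052-27143681), a homeobox transcription factor, was at 8.65 and 9.23 (WT DMSO), 5.59 and 5.33 (WT Tg), 6.95 and 10.7 (DD DMSO) and 14.8 and 16.2 RPKM (DD Tg). The WT Tg libraries were the lowest of all 8 and the DD Tg libraries the highest. Its interaction was 1.40 ± 0.80, with 1.54 in replicate 1 and 1.25 in replicate 2, 0.67 to 2.21 over the combinations and 1.12 to 1.67 over the leave-one-out fits. UPF3B (chrX:119805311-119852963), a factor of nonsense-mediated decay, was at 19.1 and 9.65 (WT DMSO), 9.21 and 8.69 (WT Tg), 7.10 and 19.3 (DD DMSO) and 20.4 and 36.6 RPKM (DD Tg). Its interaction of 1.70 ± 1.02 came with values of 2.38 and 1.03, and in each number DD Tg exceeded DD DMSO while WT Tg was below WT DMSO.

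HMGN5, a nucleosome-binding protein, had 1.42 ± 0.92, with 1.80 and 1.04 in the 2 numbers. It was higher in DD than in WT cells in all 4 comparisons within a treatment and number, at 5.29 to 24.7 RPKM against 2.07 to 5.20 RPKM. HOXC9 (1.24 ± 0.87) and HTATSF1, a splicing-linked elongation factor (1.38 ± 1.000), also had the same sign in both numbers. HMGN5, HOXC9 and HTATSF1 did not keep that sign in all 16 combinations. Across all genes, 377 (3.91%) were higher with Tg in both numbers of WT and lower in both of DD, and 285 (2.96%) the reverse.

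Several large groups of housekeeping genes had opposite interactions in the 2 numbers. The 74 cytosolic ribosomal proteins had a median 0.52 above all genes in replicate 1 and -1.04 in replicate 2. The 42 nuclear-encoded respiratory chain subunits had 0.56 and -0.98, and the 29 proteasome subunits 0.46 and -1.06. The shortest and the most expressed quintiles of all genes had the same signs. The 35 replication-dependent histones went the other way, with -0.74 in replicate 1 and 1.75 in replicate 2. Among them 1, H2BC7 (0.90 ± 0.90), was above the median in all 16 combinations by as little as 0.02, as were 1.94% of all genes. RPS3A, the ribosomal protein highest by the ranking, had 0.68 ± 1.15, and RPS15A, the lowest, -0.37 ± 1.13. H2BC18, another H2B histone, had 0.87 ± 1.07.

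**Figure D5:**
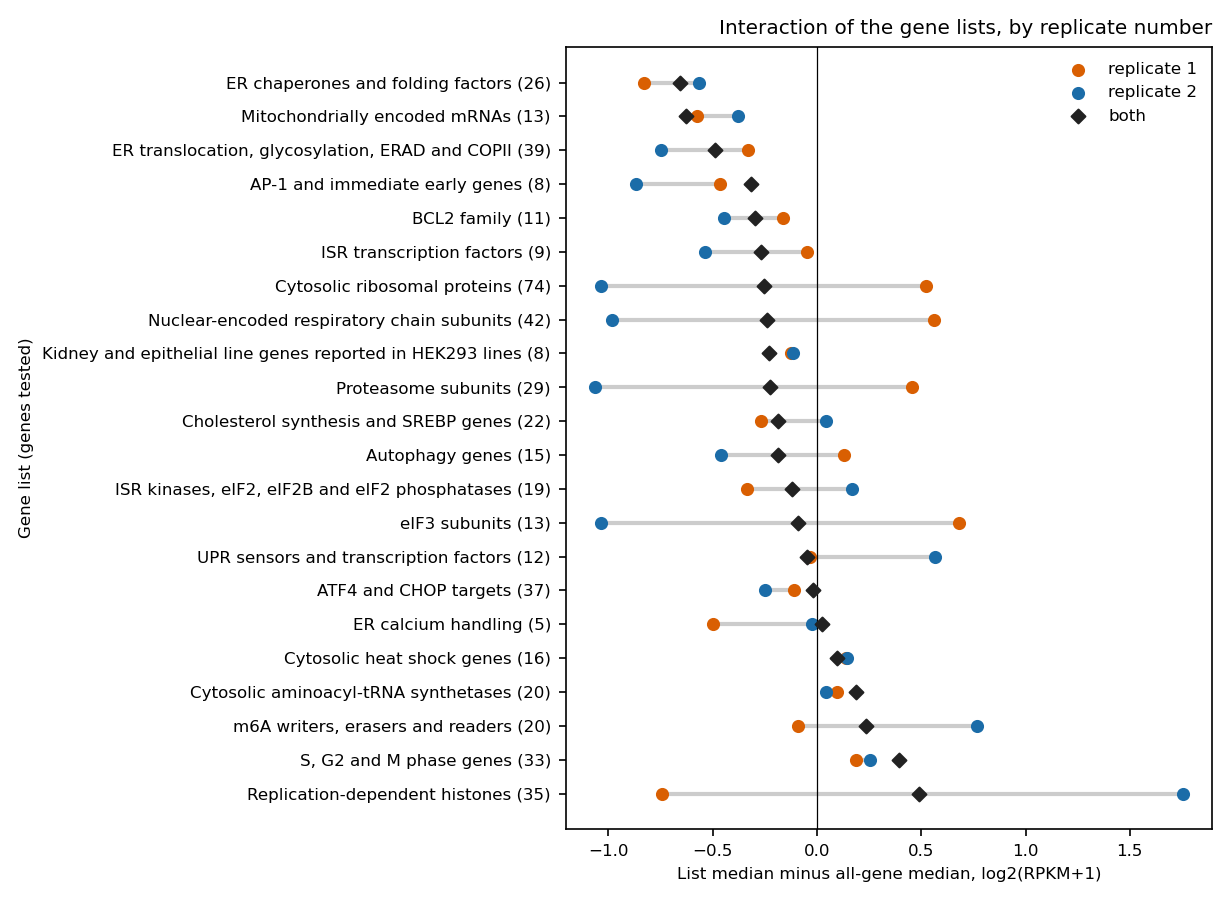
Median interaction of each gene list in log2(RPKM + 1) minus the all-gene median, for replicate 1 (orange), replicate 2 (blue) and both (black diamonds), with the number of genes tested in brackets. The ER chaperones (-0.83 and -0.57) lie below 0 in both numbers, while ribosomal proteins, respiratory chain, proteasome, eIF3 and histone genes lie on opposite sides.

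The 13 mitochondrially encoded mRNAs had a median of -0.63, with 8 below in both numbers and 2 above in both, against 16.6% of all genes in each direction. It stayed between -0.77 and -0.32 over the leave-one-out fits. Mitochondrial ribosomal RNA shares varied between 25.5% and 57.4%, and their part in this was not tested. MT-CYB, a subunit of complex III, was at 492 and 623 (WT DMSO), 797 and 1278 (WT Tg), 1073 and 1246 (DD DMSO) and 1128 and 1084 RPKM (DD Tg). It was lowest in WT DMSO, and its interaction was -0.93 ± 1.02. MT-ATP8 was the highest of the list at 1.30 ± 1.03, on a short gene with as few as 10 reads in a library.

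Genes of S, G2 and M phase had a median 0.40 above all genes, 0.19 in replicate 1 and 0.26 in replicate 2, with 10 of 33 above in both numbers (16.6% of all genes) and 3 below in both. MCM3 (chr6:52264015-52284742), a subunit of the replicative helicase, was at 33.4 and 26.01 (WT DMSO), 23.7 and 20.2 (WT Tg), 21.02 and 25.3 (DD DMSO) and 31.3 and 33.7 RPKM (DD Tg). WT Tg was below WT DMSO and DD Tg above DD DMSO, with no overlap in either genotype, and the interaction was 0.89 ± 0.92, from 0.51 to 1.47 over the combinations. CDC6, which loads that helicase, went the other way at -0.49 ± 0.75, below the median in all 16 combinations. Of all genes, 1.48% lay below in all 16 and 1.94% above. Without DD Tg 2 the list median was 0.21, and it stayed between 0.14 and 0.58 over the leave-one-out fits.

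Of 8 tested AP-1 and immediate early genes, 7 lay below the median over both numbers. Taken singly, 3 lay below in both and 1 above in both, against 16.6% of all genes in each direction. The list median was -0.31, and it moved between -1.05 and 0.23 over the leave-one-out fits. JUN, the core AP-1 factor, was at 14.5 and 17.7 (WT DMSO), 20.1 and 40.1 (WT Tg), 12.3 and 13.9 (DD DMSO) and 12.3 and 25.2 RPKM (DD Tg), with an interaction of -0.39 ± 0.98 that turned to 0.013 under quantile normalization. The 20 aminoacyl-tRNA synthetases had a median of 0.19 above all genes, with GARS1 (0.50 ± 1.09) highest and VARS1 (-0.98 ± 0.86) lowest by the ranking. The 16 cytosolic heat shock genes had a median of 0.10, with HSP90AB1 as the highest by the ranking (0.52 ± 1.05). None lay below in both numbers and 5 lay above in both, against 16.6% of all genes in each direction.

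The m6A writers, erasers and readers, 20 tested, had a median of 0.24, with -0.09 in replicate 1 and 0.77 in replicate 2. RBMX, a reader, had 0.50 ± 0.99, and ALKBH5, an eraser, had -0.49 ± 0.72 at 3.55 to 6.95 RPKM. The remaining lists had medians of -0.30 (11 BCL2 family genes), -0.19 (22 cholesterol synthesis genes), -0.18 (15 autophagy genes), -0.23 (8 genes reported in HEK293 lines) and 0.03 (5 genes of ER calcium handling). In the HEK293 list NEFL, a neurofilament gene, had -0.67 ± 2.20, at 31.5 to 58.4 RPKM in the libraries numbered 1 and 2.61 to 6.62 RPKM in those numbered 2. No member of any list was called by limma.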

How the data were processed

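RNA-Seq was made from poly(A) RNA of HEK293T cells with the NEBNext Ultra II RNA kit, per the labels' protocols. Build GRCh38 and the tools STAR, BWA, cutadapt and DESeq2, without roles, come from the submitters' processing notes. The gene counter and its annotation are not given in the sources used here. The authors deposited RPKM for 58721 genes, of which 58252 (99.2%) were matched to a symbol. Low values are whole multiples of a step, and the reads behind each value were recovered this way for 22283 genes above 0 in at least 3 libraries, each whole within 0.02. They also gave an effective gene length, and the error from counting covers counting alone.

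Values were tested as log2(RPKM + 1) for genes with a mean of at least 1 RPKM, in 1 limma fit (3.58.1, R 4.3.3) over the 4 groups with an intensity trend, two-sided and with Benjamini-Hochberg adjustment over all 9637 genes. The fit had 4 residual degrees of freedom. A check of the code on simulated data used independent noise without a difference between replicate numbers. It therefore does not measure the power of the test in these libraries. The model had no term for the replicate number. Each SE therefore includes differences between the numbers that cancel from the interaction where all groups share them. The median SE was 0.87, and 0.65 with the replicate number as a block. The correlation of number 2 minus number 1 was 0.74 to 0.86 among WT DMSO, WT Tg and DD DMSO and 0.13 to 0.30 with DD Tg. A replicate's interaction uses only its own 4 libraries. In the 16 combinations 1 library was taken from each group.

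The genes and lists were chosen with earlier results of these data known. Named were EIF3D and 14 other stress and m6A genes, the 8 lowest and 8 highest genes with a mean of at least 5 RPKM by the smaller absolute interaction of the 2 numbers with equal sign, and per list the lowest and highest member by the same ranking, of which the text prints a part. Genes with an ERSE, and PDIA4, P4HB, SRPRB, SSR2, TFE3 and H2BC7, which kept their sign in all combinations, were named after their values were seen. Alternatives were other pseudocounts, filters, scalings, voom, a robust prior, the replicate block and leaving out each library. The m6A site lists and the Subunit-Seq immunoprecipitates were not used.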

Additional observations from a re-analysis of the deposited data

Results flagged for a closer look

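In 22 of the genes named above, both WT pairs went one way with Tg and both DD pairs the opposite way. The difference between genotypes was not called for any of them by limma, and no other test of it was made. Across all genes tested, 3.91% had WT up and DD down and 2.96% the reverse. Many of the named genes were chosen from these same data for an equal sign in the 2 numbers, which favours this pattern. Their count therefore cannot be compared with these shares. WT up and DD down was found for CDK2AP2 (interaction -2.21), SERP1 (-1.89), GMPPA (-1.85), SSR4 (-1.74), PDIA4 (-1.51), SSR2 (-1.45), DDIT3 (-1.37), ATF3 (-1.34), SELENOK (-1.34), EIF2B4 (-1.11), VARS1 (-0.98), TRIB3 (-0.94), SRPRB (-0.88) and XBP1 (-0.73). WT down and DD up was found for UPF3B (1.70), HMGN5 (1.42), HOXA5 (1.40), HOXC9 (1.24), H2BC7 (0.90), MCM3 (0.89), H2BC18 (0.87) and PSAT1 (0.50). XBP1 and TRIB3 turned sign when 1 library was left out (0.28 and 0.18 at the highest, both without DD Tg 2), as did PSAT1 (-0.33 without DD Tg 1). Groups of 2 libraries are too small for a search for single outlying values.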

How the results depend on the processing

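limma called 0 genes under every alternative run, including all 16 fits that left out 1 library. Genes at an unadjusted p under 0.05 numbered 21 as reported and 26 to 3184 in those 16 fits. With the replicate block, 0 were called and 67 had an unadjusted p under 0.05; the block together with leaving out DD Tg 1 or DD Tg 2 gave 3184 and 636, in fits where the single DD Tg library is assumed to vary like the other groups. Genes at least 2-fold the same way in both numbers went from 88 to 239 with a pseudocount of 0.1 and to 39 at a mean of at least 5 RPKM, where fewer genes were tested. Genes with 1 sign in all 16 combinations went from 330 to 116 at that mean. Leaving out a library turned the sign of none of 35 of the 56 named genes, and of the other 21 at least once. Their lowest and highest values were ATF4 -1.06 to 0.42, ATF5 -0.17 to 0.61, CRELD2 -2.01 to 0.018, EIF2A -0.59 to 0.57, EIF2AK4 -0.16 to 0.83, EIF2S2 -0.68 to 0.69, EIF3D -1.09 to 0.72, ERO1B -1.003 to 0.53, GARS1 -0.090 to 1.08, HERPUD1 -2.17 to 0.048, HSP90B1 -1.28 to 0.69, HSPA5 -1.72 to 0.16, JUN -0.87 to 0.10, NEFL -2.69 to 1.35, PPP1R15A -1.37 to 0.51, PSAT1 -0.33 to 1.33, RBMX -0.0030 to 1.00, RPS15A -1.24 to 0.50, TMEM120A -1.52 to 0.15, TRIB3 -2.06 to 0.18, XBP1 -1.75 to 0.28. Under quantile normalization the interaction turned to 0.16 for ATF4, 0.15 for EIF3D, 0.25 for EIF2A, 0.11 for HSP90B1 and 0.013 for JUN. It turned to 0.076 for EIF2A under median-ratio scaling and to -0.0032 for EIF2S2 with a pseudocount of 0.1. The cause was not tested. Of 66 list medians under another pseudocount or scaling, 55 moved by less than the SD of the list's medians in replicate 1 and replicate 2. This SD is large for lists whose 2 numbers disagree, so for those lists the count says little about stability. Depth limits genes near 1 RPKM most.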
